A study of Mus musculus with 4 samples.

Results

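The TALE homeobox genes described here are *Meis1*, *Meis2*, *Meis3*, *Pbx2*, *Pbx3*, *Pknox1*, *Pknox2*, *Tgif1* and *Tgif2*, 9 of the 28095 gene names that the array's annotation gives. They were taken as every non-control probe that carries one of these symbols, which are 17 of 41174 probes, and each probe was kept apart from the others of its gene. Of the 17 probes, 8 from 6 genes could be tested, among 22007 tested probes in all. Testing required a value on all 4 arrays and, in 1 genotype or both, a mark of well above background from the scanner software on each array.

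TALE proteins are homeodomain transcription factors with extra residues in a loop of the homeodomain. Meis and Pknox proteins bind Pbx proteins, and these complexes serve as DNA-binding partners of Hox proteins in blood progenitors and in leukemia. Tgif1 and Tgif2 are TALE proteins that act as corepressors of Smad proteins in TGF-beta signaling. *Meis1* is known as the family member of HSCs and of megakaryocytes, and its levels decline as blood cells mature.

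RNA came from LSK cells, sorted from bone marrow as lineage-negative, Sca-1+ and c-Kit+ (KSL in the sample labels), a fraction rich in HSCs and multipotent progenitors. Each genotype was sampled as 2 pools of 6 C57BL/6J mice, collected 1 week after poly(I:C), and every pool gave 1 one-color array from 10 ng of Cy3-labeled RNA. Meis1-deficient mice were Mx1-Cre positive and Meis1 fl/fl, control mice were Mx1-Cre negative and Meis1 fl/fl, so both genotypes carried the floxed alleles and only the former a Cre. The labels state 4 intraperitoneal doses of poly(I:C) at 1.5 ug per g and an age of 4 to 8 weeks for both genotypes, whereas the deposited design text calls the controls sham-treated. If that text holds, genotype and poly(I:C) cannot be told apart. The Mx1 promoter that drives Cre responds to interferon and is not restricted to blood cells, and the part of *Meis1* that Cre removes is exon 8, which encodes the homeodomain.

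The second Meis1-deficient array was the dimmest, with 49.2% of its spots well above background against 54.7% to 57.4% on the other 3, and its log2 values correlated with theirs at r = 0.891 to 0.916 across probes. The other 3 arrays correlated with one another at 0.956 to 0.967. The first array of each genotype shared slide 1 and the second shared slide 2. All 9 markers of LSK cells were well above background on all 4 arrays, and none of them met the study's criteria for a difference. With 2 arrays per genotype, an exact permutation test cannot give a two-sided p below 0.333, and p-values measure the spread between pools.

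*Meis1* is represented by 2 probes of 60 bases on the minus strand of chromosome 11 (positions on mm9, as the array's annotation gives them). Probe A_52_P670612 lies at chr11:18911247-18911306. Probe A_52_P26195 lies at chr11:18781206-18781265, 130.0 kb further along the direction of transcription, so at most 1 of them can lie in the deleted exon. Their sequences are shown because they differ in what part of the transcript they can report, with stop triplets in capitals. A_52_P670612 has 1 of its 3 forward reading frames free of stop triplets. A_52_P26195 has stops in all 3 frames and so cannot lie wholly in coding sequence. It is 1 of 2 such probes among the 17, and 21.7% of all probes on the array are of this kind. Of A_52_P26195 only bases 15 to 44 are shown, which hold a stop in each frame.
*Meis1* A_52_P670612: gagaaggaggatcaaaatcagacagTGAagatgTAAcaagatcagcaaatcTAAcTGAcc
*Meis1* A_52_P26195: atttgcaggattttTAGagcatTAAaaTAA
Neither sequence contains a *Meis1* primer of the study's quantitative PCR on either strand, and the longest run shared with a primer was 7 bases. No annotation of mm9 exons was used here, so the place of the probes relative to exon 8 was not analysed, and a probe outside the deleted part does not check the deletion.

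At both *Meis1* probes, the 2 Meis1-deficient pools were below the 2 control pools, but neither difference passed the study's criteria or adjustment for multiple tests in the fit on genotype alone. *Meis1* signal was still present in Meis1-deficient LSK cells. At A_52_P670612 the 2 Meis1-deficient pools had processed signals of 176 and 105 and the 2 control pools 297 and 420, well above background on all 4 arrays. Scaled to each array's 75th percentile, these were log2 values of 0.25 and 0.22 for the Meis1-deficient pools, against 1.02 and 1.45. The Meis1-deficient pools thus lay close together and the groups did not overlap.

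The mean log2 difference at A_52_P670612, Meis1-deficient minus control, was -0.997 (standard error 0.44, 95% interval -2.05 to 0.061, adjusted p = 0.983 by limma). This was 2.00-fold lower by the mean. Slide 1 alone gave -0.77 and slide 2 gave -1.23. Across all tested probes, 7.31% had a lower mean difference, 5.56% a lower one on slide 1 and 12.9% on slide 2. In bulk RNA of sorted cells, fewer *Meis1*-expressing cells in the LSK gate and less *Meis1* RNA per cell cannot be told apart.

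At the downstream probe A_52_P26195 the pools of a genotype lay further apart, and 1 of the 4 spots was at background. The Meis1-deficient pools had processed signals of 26.9 and 7.77 and the control pools 50.3 and 73.7. The spot at 7.77, from the dimmest array, failed the background mark (mean spot signal 70.5, local background 55), and the other 3 passed it. Scaled log2 values were -2.46 and -3.54 for the Meis1-deficient pools, against -1.55 and -1.06, so that the groups did not overlap here either.

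The mean log2 difference at A_52_P26195 was -1.70 (standard error 0.54, 95% interval -2.997 to -0.40, adjusted p = 0.983 by limma), and 2.01% of tested probes had a lower one. Slide 1, with both spots above background, gave a difference of -0.92, which is 1.89-fold lower. Slide 2 gave -2.47, with a Meis1-deficient spot at background. With that spot set to the lowest signal well above background on its array, the mean over both slides was 2.93-fold lower at this probe. This value depends on the limit chosen and is not a lower bound, since slide 1 alone gave less.

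The study's criteria were an unadjusted p under 0.01 and a difference of more than 2-fold. In the fit on genotype alone, 0 of the 8 tested TALE probes met them in either direction, where 0.6% of all tested probes were called lower and 0.136% higher. With the slide as a block, 1 of 8 was called lower, *Meis1* A_52_P26195 (adjusted p = 0.498 by limma), where 1.4% of all tested probes were, and 0 higher, against 0.591%. That probe entered the test through its control spots, gives no value when all 4 spots must be well above background, and lost the blocked call when the 75th percentile was taken over probes (adjusted p = 0.521 by limma). The difference stayed at -1.70 there, and the unadjusted p moved from just under to just over the threshold of 0.01. After adjustment, 0 of 22007 probes passed 0.05 in the fit on genotype alone and 50 (0.227%) passed with the block, none of them a TALE probe. An unadjusted p under 0.05 was found by limma for 1 TALE probe, *Meis1* A_52_P26195, and for 2.81% of all tested probes. The block gave the same count of 1, against 6.07%.

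Both Meis1-deficient arrays lay below both control arrays at 2 of the 8 tested TALE probes, the 2 *Meis1* probes, and at 10.9% of all tested probes. At 0 TALE probes did both lie above, against 16% of all tested probes. The 2 *Meis1* probes, *Pknox1* and *Tgif1* were lower on both slides, 4 of 8 probes, against 21% of all. At 0 of 8 was the difference over 2-fold lower on both slides (1.56% of all), and 0 of 8 were higher on both slides (30.3% of all). The median log2 difference was -0.23 over the 8 TALE probes and 0.082 over all tested probes.

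**Figure D1:**
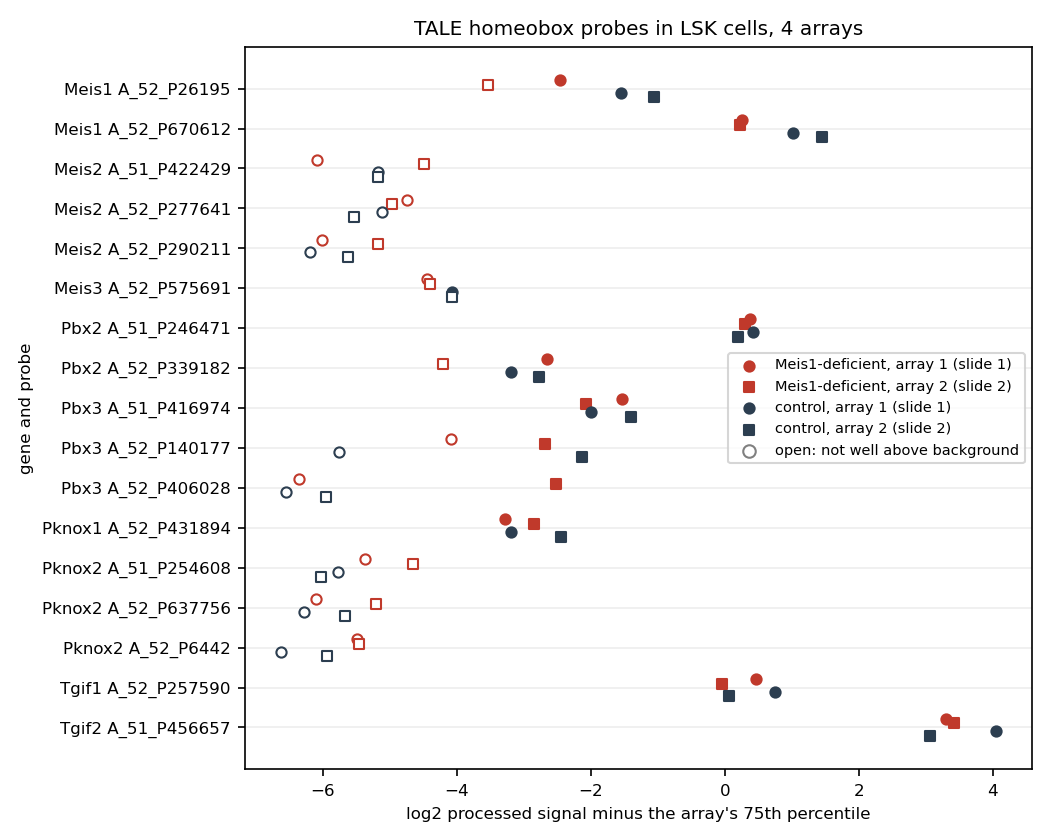
Scaled log2 signal (x axis, log2 processed signal minus the array's 75th percentile) of the 17 TALE probes (rows, not comparable with each other in level) on 2 Meis1-deficient and 2 control arrays, with open symbols where a spot was not well above background and the symbol shape giving the slide. At both *Meis1* probes the red symbols lie left of the dark ones, and the *Meis2* and *Pknox2* rows hold open symbols alone.

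**Figure D2:**
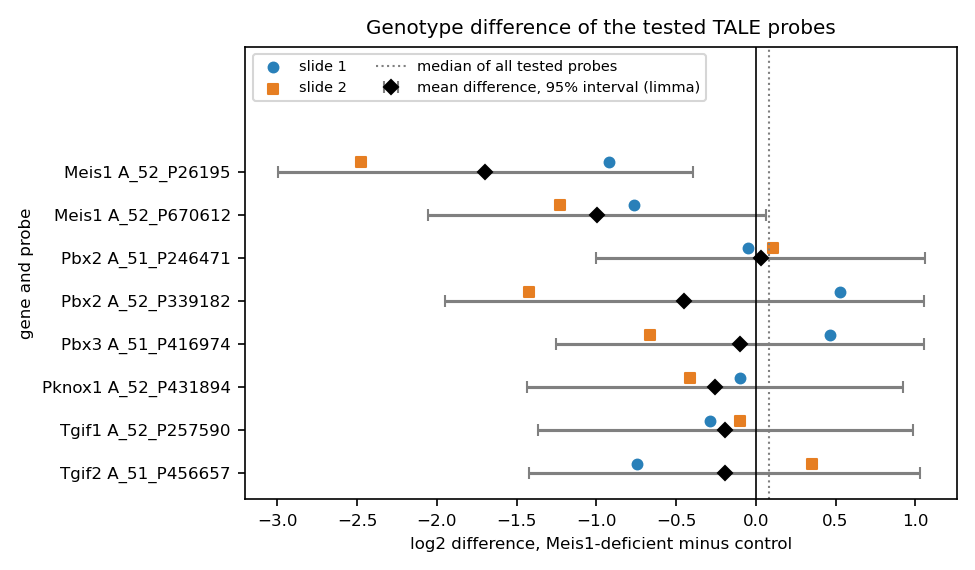
Log2 difference between Meis1-deficient and control LSK cells (x axis) for the 8 tested TALE probes (rows), with the mean and its 95% interval by limma as a diamond with bars, and slides 1 and 2 as separate points. The interval of *Meis1* A_52_P26195, -2.997 to -0.40, is the one interval that does not cover 0.

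The differences of both *Meis1* probes were below 0 in all 35 combinations of probe and processing setting that gave a value. With 1 array left out, the difference ranged from -1.21 to -0.78 at A_52_P670612 and from -2.23 to -1.16 at A_52_P26195. The value of -2.23, without the first Meis1-deficient array, met the criteria, but it rests on the single Meis1-deficient spot at background with the spread taken from the control arrays alone, in a setting that called 1705 of the 22007 probes lower. After normexp, a background correction that adds an offset and so compresses dim signals, the differences were -0.83 at A_52_P670612 and -0.27 at A_52_P26195.

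**Figure D3:**
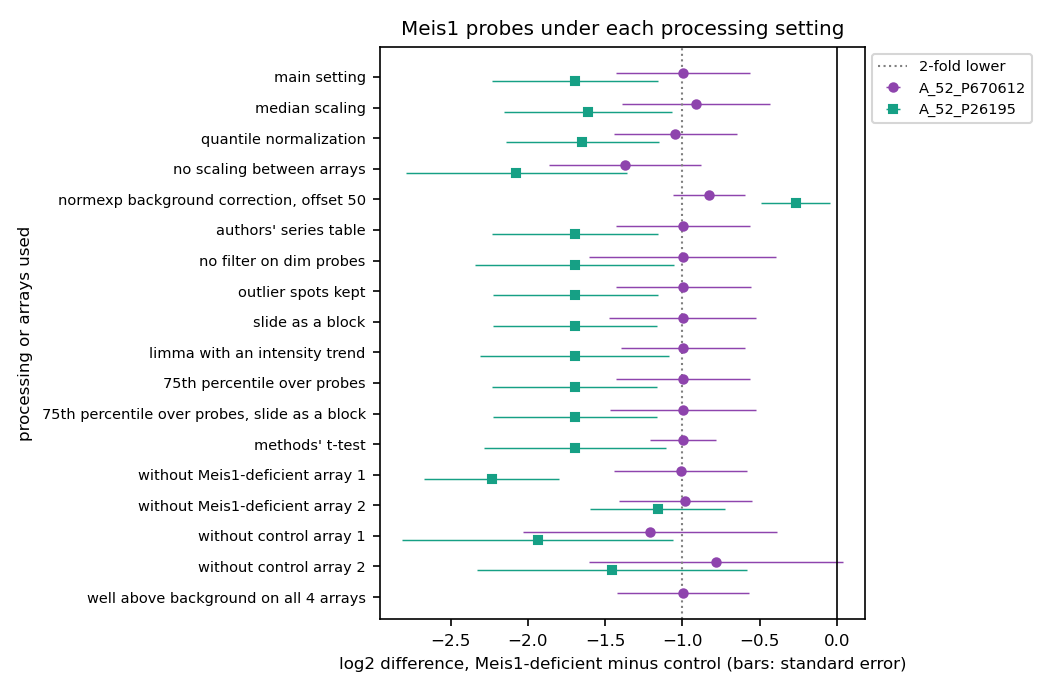
Log2 difference of the 2 *Meis1* probes (x axis, Meis1-deficient minus control, bars give the standard error) under each processing setting or set of arrays (rows), with a dotted line at 2-fold lower. All points lie below 0, and the point closest to 0 is A_52_P26195 after normexp at -0.27.

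Markers of other cells were set beside these values, for lists of B lineage, plasma, T lineage, erythroid, granulocyte and monocyte, megakaryocyte, and stromal and endothelial cells. All 7 megakaryocyte markers were well above background on all arrays, and their summed scaled level (multiples of each array's 75th percentile) was 95.8 and 118 in Meis1-deficient and 75.7 and 128 in control cells. The sum, most of it from *Itgb3*, thus overlapped between genotypes. Of the 7 markers 3 had a lower and 4 a higher mean in Meis1-deficient cells, from -1.65 at *Itga2b* to 0.30 at *Itgb3*, with a median log2 difference of 0.034 and 0 called. The sums of 6 of the 8 lists overlapped, that of LSK cells included (142 and 146 against 145 and 118). The erythroid sum was higher in Meis1-deficient cells (99.5 and 245 against 87.6 and 23.4), but nearly all of it was 1 beta-globin probe, *Hbb-b1* (93.6 and 243 against 79.0 and 21.99). Of the 6 tested erythroid markers 3 had a higher and 3 a lower mean, with 1, *Rhag*, called higher and 0 lower, against 0.136% and 0.6% of all tested probes. *Alas2*, counted among the 3 lower, entered through its control spots. It has no lower fold once its Meis1-deficient spot at background is set to that array's limit. The T lineage sum was lower (0.34 and 0.50 against 0.53 and 0.79), but each of its 6 markers had at least 1 spot at background, and *Cd3e* and *Cd3g* had no spot above it. The 2 tested T lineage markers, *Cd8a* and *Lck*, which entered through their control spots, had a lower mean, and 0 were called. All 3 tested B lineage markers and all 4 tested plasma cell markers (median difference -1.30) had a lower mean in Meis1-deficient cells, with 0 called, where 43.7% of all tested probes had one. Among the plasma cell markers, *Tnfrsf17* entered through its control spots. Of 7 tested granulocyte and monocyte markers 5 had a lower and 2 a higher mean, with 1 called lower (0.6% of all tested probes were), *Elane* at -1.57, and the brightest of them, *Mpo*, differed by 0.56. The part of these cells in the *Meis1* difference was not tested.

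The remaining Meis genes gave little signal. *Meis2*, known from limb, brain and heart development, has 3 probes on chromosome 2, and none was well above background on any array, with signals between 2.01 and 5.56. Of these 12 spots, 6 carried a surrogate value that the software writes for spots not above background. The stromal and endothelial markers *Cdh5*, *Col1a1*, *Col3a1*, *Pdgfra* and *Lepr* were likewise not well above background on any array, whereas *Tek*, *Col1a2* and *Pdgfrb* of the same list of 10 were on all 4. *Cxcl12* was the 1 of 5 tested markers of that list called lower, against 0.6% of all tested probes, and 0 were called higher. It entered the test through its control spots, with both Meis1-deficient spots at background. With these set to their arrays' limits, the mean of *Cxcl12* was 5.11-fold lower in Meis1-deficient cells.

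*Meis3*, a paralog studied mainly in the developing hindbrain and gut, has 1 probe, A_52_P575691 (chr7:16770024-16770812). Its 60 bases span 789 bases of the genome, so it crosses a splice junction and can only be matched in full by spliced RNA. It is shown for that reason, with stop triplets in capitals, and reads without a stop in 2 of its 3 forward frames.
*Meis3* A_52_P575691: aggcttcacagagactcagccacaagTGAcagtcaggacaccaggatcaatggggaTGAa
The Meis1-deficient pools gave signals of 6.79 and 4.26 and the control pools 8.73 and 9.14. Of these, 8.73 on the first control array was well above background and the higher 9.14 on the second was not, because each array has its own limit. The probe was not tested, and no difference is given between groups that were both mostly at background.

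The Pbx genes encode the partners that Meis and Pknox proteins bind. *Pbx2* has 2 probes on the plus strand of chromosome 17, 1.61 kb apart. The upstream probe, A_52_P339182 (chr17:34731746-34731805), is shown because it carries the letters TGGTTNNNNAANNNNNG (N is any base), which match codons of the conserved recognition helix of the homeodomain. These letters, in capitals below, occur on either strand in 1 of the 17 TALE probes and in 0.255% of all probes on the array.
*Pbx2* A_52_P339182: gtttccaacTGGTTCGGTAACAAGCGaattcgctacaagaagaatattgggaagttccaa
Although this stretch is conserved across homeobox genes, no TALE probe shared a run of 20 bases with a probe of another gene, and the longest run shared between probes of different TALE genes was 8 bases.

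At the downstream *Pbx2* probe, A_51_P246471 (chr17:34733355-34733414), the log2 values were 0.38 and 0.30 in Meis1-deficient and 0.43 and 0.20 in control cells, all well above background. The groups overlapped, and the difference was 0.03 (95% interval -0.9995 to 1.06, adjusted p = 0.995 by limma). The interval leaves room for changes of up to about 2-fold in either direction.

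The homeobox probe of *Pbx2* had log2 values of -2.66 and -4.21 in Meis1-deficient and -3.19 and -2.78 in control cells. The value of -4.21 came from a background-level spot of the dimmest array. Slide 1 gave a difference of 0.53 and slide 2 of -1.42, so the slides pointed in opposite directions, and the mean of -0.45 had a 95% interval of -1.95 to 1.05 (adjusted p = 0.983 by limma). Without that array the difference was 0.33.

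*Pbx3*, a Pbx gene expressed with *Meis1* in leukemia, has 3 probes on the minus strand of chromosome 2, of which 1 was tested. A_51_P416974 (chr2:34027483-34027542) had log2 values of -1.54 and -2.07 in Meis1-deficient and -1.998 and -1.40 in control cells. The groups overlapped, the slides differed in sign (0.46 and -0.66), and the mean difference was -0.10 (95% interval -1.25 to 1.05, adjusted p = 0.991 by limma).

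The other 2 *Pbx3* probes derive from cDNA clones rather than from a RefSeq transcript. A_52_P406028 lies 3.04 kb before A_51_P416974 in the direction of transcription, and A_52_P140177 another 193 kb before that. A_52_P140177 had signals of 8.74 and 14.1 in the Meis1-deficient pools and 2.70 and 35.3 in the control pools, well above background on both arrays of slide 2 and on neither array of slide 1. It therefore separated the slides and not the genotypes. A_52_P406028 was well above background on the second Meis1-deficient array alone, with a signal of 15.7 against 1.57 to 2.49 on the other 3.

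The Pknox genes, also called Prep, encode proteins that compete with Meis for Pbx. *Pknox1* (A_52_P431894, chr17:31744266-31744325) passed the background mark on all 4 arrays, at log2 values of -3.29 and -2.85 in Meis1-deficient and -3.19 and -2.44 in control cells. In both genotypes the array of slide 2 was the higher, by 0.43 and 0.75 on the log2 scale, and within a slide the Meis1-deficient array was lower by less than that (differences of -0.10 and -0.41). The mean difference was -0.26 (95% interval -1.43 to 0.92, adjusted p = 0.983 by limma). *Pknox2*, by contrast, had 3 probes on chromosome 9 and none was well above background on any array, with signals between 1.49 and 3.58 and surrogate values at 8 of 12 spots.

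The Tgif genes encode the corepressor branch of the family. *Tgif1* (A_52_P257590, chr17:71194438-71194497) had log2 values of 0.47 and -0.04 in Meis1-deficient and 0.76 and 0.07 in control cells, again ordered by slide within each genotype. Within slides 1 and 2 the differences were -0.28 and -0.10, with a mean of -0.19 (95% interval -1.37 to 0.98, adjusted p = 0.983 by limma). *Tgif2* (A_51_P456657, chr2:156681159-156681218) had signals of 1471 and 965 in the Meis1-deficient pools and 2437 and 1291 in the control pools. Scaled, these were 3.31 and 3.42 against 4.05 and 3.07, so that both Meis1-deficient pools lay between the 2 control pools. Slides 1 and 2 gave -0.74 and 0.35, and the mean of -0.20 had a 95% interval of -1.42 to 1.03 (adjusted p = 0.984 by limma).

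Of the 6 tested TALE probes outside *Meis1*, 5 had a lower mean in Meis1-deficient cells, where 43.7% of all tested probes had, and 4 had opposite signs on the 2 slides. Among the 5 is *Pbx2* A_52_P339182, which entered the test through its control spots and has no lower fold once its Meis1-deficient spot at background is set to that array's limit. The mean differences of the 6 ran from -0.45 to 0.03, and all 6 intervals ran from about 2-fold lower or beyond to nearly 2-fold higher or beyond. Changes of up to about 2-fold at these probes were thus not detectable with these arrays. Larger changes also lie within some of the intervals, down to a log2 difference of -1.95 at *Pbx2* A_52_P339182. Each of the 6 differences changed sign under at least 1 alternative processing or left-out array.

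**Figure D4:**
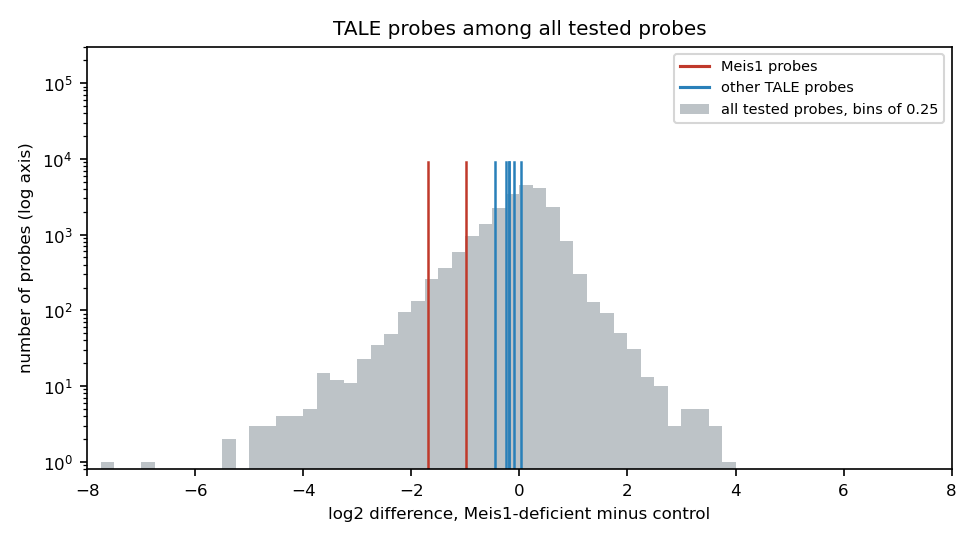
Number of tested probes (y axis, log scale) by log2 difference between Meis1-deficient and control cells (x axis, bins of 0.25), with vertical lines at the TALE probes. The 6 probes outside *Meis1* lie between -0.45 and 0.03 and the 2 *Meis1* probes at -0.997 and -1.70, inside the range of all 22007 probes.

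The genes that TALE proteins work with were counted by the brightest tested probe of each gene. Over 6 lists holding 93 genes, 59 were tested, and 3 met the study's criteria lower and 0 higher, against 0.6% and 0.136% of all tested probes. Lower calls numbered 1 with the filter on all 4 arrays and 0 by the methods' t-test. With 1 array left out there were 8 without the first Meis1-deficient array, 0 without the first and 1 without the second control array, and higher calls numbered 1 without the second Meis1-deficient and 2 without the first control array. The 3 were *Flt3*, *Trib2* and *Hlf*, all from the list of 13 reported Meis1 targets, of which 12 were tested. *Flt3* and *Trib2* entered the test through their control spots. *Flt3*, a receptor tyrosine kinase of lymphoid-primed progenitors, had log2 values of -2.32 and -4.72 in Meis1-deficient and -0.19 and -0.19 in control cells. The value of -4.72 came from a spot at background. With that spot at its array's limit the mean of *Flt3* was 6.04-fold lower, and slide 1 alone gave 4.36-fold. *Trib2*, a pseudokinase that cooperates with Meis1 in leukemia, was not well above background on either Meis1-deficient array. With both spots at their arrays' limits, its mean was 3.81-fold lower. *Hlf*, a PAR bZIP factor of HSCs, had a difference of -2.42. All 3 had an adjusted p of 0.983 by limma, and these genes were chosen with results of these arrays known.

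Among the Hox genes, 18 of 38 on the array were tested and 0 met the criteria. Blocking on the slide called 1 of the 18 higher, *Hoxb7*, and 1 lower, *Hoxc10* (adjusted p = 0.412 by limma for each), against 0.591% and 1.4% of all tested probes, and both include a spot at background. *Hoxb7* entered the test through its Meis1-deficient spots and *Hoxc10* through its control spots, in each case the genotype with the higher values. *Hoxb9*, not called, differed by 1.65, with 0.65 on slide 1 and 2.66 on slide 2. *Hoxb7* had log2 values of -0.44 and 0.14 in Meis1-deficient and -1.18 and -5.95 in control cells, and the value of -5.95 came from a spot that was not well above background. With that spot set to the lowest signal well above background on its array, *Hoxb7* was 4.92-fold higher by the mean over both slides. On slide 1, where both spots passed the background mark, the difference was 0.74. *Hoxc10* had values of -3.65 and -4.81 against -2.31 and -2.77, with the groups apart. Its mean was 1.88-fold lower with its background-level spot on the second Meis1-deficient array set to that array's limit.

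The list of Meis and Pbx cofactors had 10 tested genes, with *Trib2* called lower and none higher. The histone acetyltransferases *Crebbp* and *Ep300* were also lower by the mean without being called. *Ep300* was 2.61-fold lower by the mean with its second Meis1-deficient spot, at background, set to that array's limit. Slide 1 gave a difference of -0.31, so this value rests on the second slide. *Crebbp* differed by -2.40, but on slide 1 it was 3.11 in the Meis1-deficient and 3.01 in the control pool, and its values on slide 2 were -2.92 and 1.98. Of 10 tested corepressor partners of Tgif, 0 were called, with *Skil* at -0.78, *Smad3* at -0.53 and *Sin3a* at -0.42. Slides 1 and 2 gave -0.86 and -0.70 for *Skil*, -0.02 and -1.05 for *Smad3*, and 0.12 and -0.95 for *Sin3a*. The means of *Smad3* and *Sin3a* thus rest on the second slide. Of 10 tested genes from the list of MLL, menin and other regulators of *Meis1* transcription, 0 were called. *Mllt3* differed by -1.40 (-1.09 on slide 1 and -1.72 on slide 2), *Creb1* by 0.65 (0.24 and 1.06) and *Psip1* by -0.52 (0.04 and -1.07). The means of *Creb1* and *Psip1* thus come mostly from the second slide. The list of other TALE homeobox genes had 1 tested gene, *Mkx*, a homeobox factor of tendon, at 0.84 (adjusted p = 0.983 by limma).

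The pattern of *Meis1* over the 4 arrays was compared with that of all genes by the distance between centered log2 values of A_52_P670612 and of 19068 other probes. The 5 closest were *Fstl1*, *Bclaf1*, *Dennd4a*, *Ermap* and *Cyp39a1*. Of these, *Dennd4a* (distance 0.14, difference -1.03) and *Ermap* (distance 0.14, difference -1.11) were well above background on all 4 arrays. The other 3 had 1 or both Meis1-deficient spots at background, so their distances are not given. They were ordered over 4 arrays only, on which many probes must lie close.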

How the data were processed

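The authors deposited, for each of 4 arrays, spot intensities from Agilent Feature Extraction (9.5.3.1 per the file headers, 9.1 per the labels), and a table of the series with the same intensities rounded. The processed signal is background-subtracted, with surrogate values at 25.2% to 33.2% of spots, and is not scaled between arrays. Positions are on mm9. Symbols come from the array's annotation, and the 13 of 17 TALE probes with a RefSeq accession matched a RefSeq gene table under the same symbol.

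Control and outlier spots were left out, log2 values of a probe's spots averaged, and each array's 75th percentile subtracted. Genotypes were compared with limma 3.58.1 in R 4.3.3, with Benjamini-Hochberg adjustment over 22007 probes, and the fit was tested on simulated data. Slides come from the names of the scanner files. The deviations of same-slide arrays from genotype means correlated at 0.266, so a fit that blocks on the slide is given where it changes a call. No cutoff on spot quality beyond the software's own marks was set, and the number of arrays limits the precision.

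Named were all TALE probes, list genes that met the criteria, the 3 largest differences per list and the 5 nearest patterns to *Meis1*. The TALE genes, gene lists and marker lists were chosen with earlier results of these data known. Alternatives were median, quantile and no scaling, normexp with an offset of 50, the authors' series table, keeping outlier spots, dropping the background filter or applying it to all 4 arrays, blocking on the slide, an intensity trend, the methods' t-test, leaving out each array, and, added after the data were seen, the percentile over probes.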

Additional observations from a re-analysis of the deposited data

How the results depend on the processing

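Of the 8 TALE probes, the 2 *Meis1* probes stayed below 0 under every alternative that gave a value, from -1.37 (no scaling) to -0.78 at A_52_P670612 and from -2.23 to -0.27 (normexp) at A_52_P26195, which gives no value when a probe must be well above background on all 4 arrays. A_52_P26195 met the criteria when the slide was a replicate block (-1.70, adjusted p = 0.498 by limma) and without the first Meis1-deficient array (-2.23, leave-one-out range -2.23 to -1.16). The latter value rests on 1 Meis1-deficient spot at background, assumed to vary like the control arrays. The call with the block was lost when the percentile was taken over probes (adjusted p = 0.521 by limma), with the difference still -1.70 and the unadjusted p just past the threshold. At A_52_P670612 the block left the call as it was (adjusted p = 0.862 by limma), and the leave-one-out range was -1.21 to -0.78. The other 6 probes turned sign: *Pbx2* A_51_P246471 to -0.35 without scaling, -0.028 after normexp, and -0.01 and -0.086 without the first Meis1-deficient and the second control array (leave-one-out range -0.086 to 0.14); *Pbx2* A_52_P339182 to 0.29 after normexp and 0.33 without the second Meis1-deficient array (-1.22 to 0.33); *Pbx3* A_51_P416974 to 0.16 after normexp and to 0.17 and 0.20 without the second Meis1-deficient and the second control array (-0.40 to 0.20); *Pknox1* to 0.22 after normexp and 0.12 without the second control array (-0.63 to 0.12); *Tgif1* to 0.06 and 0.15 without the second Meis1-deficient and the first control array (-0.54 to 0.15); and *Tgif2* to 0.30 without the first control array (-0.69 to 0.30). TALE probes called lower numbered 0, 1 with the block, and 0 to 1 with an array left out. Over all tested probes, 132 were called lower and 30 higher. These counts became 47 and 2 after normexp, 43 and 10 with the filter on all 4 arrays, 307 and 130 with the block, 297 and 127 with the block and the percentile over probes, 85 and 16 with an intensity trend, and 23 and 7 by the methods' t-test. Without scaling, the median log2 difference of all tested probes moved from 0.082 to -0.30, with 125 called lower and 14 higher. Higher calls rose to 100 without a filter. With an array left out they ranged from 57 to 1705 and from 34 to 510, the highest without the first Meis1-deficient array. Over the partner, regulator and target lists, lower calls went from 3 to 1 with the filter on all 4 arrays and 0 by the methods' t-test, and from 0 to 8 with an array left out. Higher calls there went from 0 to 1 without a filter and to 1 with the block under either percentile, and from 0 to 2 with an array left out. The cause of these moves was not tested. With 2 arrays per genotype and 9 of 17 TALE probes too dim to test, signal over background and array number limit every comparison.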
